A study of Mus musculus with 6 samples.

Results

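Spred2, Def6, Rin3 and Rtkn encode proteins that act on small GTPases, and each holds a stretch of CpGs with a higher methylation level in haematopoietic cells of Idh1 knock-in mice than in cells of control littermates. The 4 genes were examined through every CpG position read in all 6 libraries within their RefSeq extent (build mm10) plus 2 kb on each side. Windows of 1 kb with at least 5 such positions numbered 11 in these genes, of 25123 windows in the whole series. A window was called rising where its level was at least 10 percentage points higher in the knock-in library in all 3 cell types. By this rule 4 of the 11 windows were rising, 1 in each gene, against 225 of 25123 windows overall (0.896%). The genes were chosen by these KI minus Control differences of window levels, so the count describes the choice and no test of genotype is given for them.

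The assay was enhanced reduced representation bisulfite sequencing, in which bisulfite converts unmethylated cytosine so that it is read as T, and only CpG-rich restriction fragments are sequenced. The cells were long-term haematopoietic stem cells (LT-HSC, sorted as Lin- Sca+ Kit+ CD150+ CD48-), short-term haematopoietic stem cells (ST-HSC, with CD150+ and CD48+) and multipotent progenitors (MPP, with CD150-) from bone marrow of C57BL/6 males aged 7 to 10 months. The genotype IDH1+/lsl VavCre+, called KI, was compared with IDH1+/+ VavCre+ littermates, called Control. Both groups therefore carried Cre driven by the blood-cell promoter Vav, and they differed in 1 Idh1 allele, whose encoded change the labels do not name. Marrow of 6 mice per group was pooled and each genotype and cell type gave 1 library, so there were no replicates. The sorted identities rest on the labels, since methylation files hold no expression of surface markers.

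Small GTPases switch between a GDP-bound resting form and a GTP-bound active form. Guanine nucleotide exchange factors (GEFs) load GTP, GTPase-activating proteins end the signal, and effectors bind the active form. RAS carries growth signals of cytokine receptors to the MAP kinase cascade, RAC proteins shape the actin cytoskeleton during homing and migration of blood cells, and RAB5 directs early endosomes and receptor uptake. Spred2 restrains RAS to MAP kinase signalling by bringing the GTPase-activating protein neurofibromin to the membrane. Def6, also named Ibp or Slat, is an exchange factor for RAC and related GTPases in lymphocytes. Rtkn encodes rhotekin, an effector that binds a GTP-bound small GTPase. Rin3 is an exchange factor for RAB5-family GTPases that also binds RAS.

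Of the 4 rising windows, that of Rtkn was at a transcript start, and its CpGs can be shown in sequence. The RefSeq promoter of Rtkn (250 bases before to 50 after the first transcript start, GRCm38.p6, plus strand, chr6:83135558-83135857) held all 8 positions of the rising window, which fell on 6 of its 15 CpGs. The first RefSeq promoter of Rin3 (plus strand, chr12:102282824-102283123) is shown for contrast. Its measured positions had a low mean level in all 6 libraries, while the rising window of that gene lies 85.4 kb downstream. Both come from the RefSeq table and are printed 5′ to 3′, with capitals marking CpGs read on at least 1 strand in all 6 libraries.
Rtkn promoter: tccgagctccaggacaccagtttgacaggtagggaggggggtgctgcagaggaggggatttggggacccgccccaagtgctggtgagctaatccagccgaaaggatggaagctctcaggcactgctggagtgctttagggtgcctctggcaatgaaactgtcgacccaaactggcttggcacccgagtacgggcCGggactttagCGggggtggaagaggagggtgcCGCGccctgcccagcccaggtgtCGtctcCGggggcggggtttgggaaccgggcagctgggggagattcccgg
Rin3 promoter: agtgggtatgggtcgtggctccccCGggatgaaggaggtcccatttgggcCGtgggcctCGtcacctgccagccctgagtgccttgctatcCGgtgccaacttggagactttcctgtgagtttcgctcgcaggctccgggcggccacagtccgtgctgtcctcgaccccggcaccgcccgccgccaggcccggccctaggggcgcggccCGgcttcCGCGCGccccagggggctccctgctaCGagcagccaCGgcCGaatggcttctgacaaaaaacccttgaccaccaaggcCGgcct
The measured CpGs of Rtkn lie from 56 bases before to 6 bases after its start. The 12 measured CpGs of Rin3 lie from 226 bases before to 44 bases after its start. None of them lies between 159 and 41 bases before it, so the CpGs there were not read in all 6 libraries. The Rtkn promoter held 4 copies of CCGG, the site cut by MspI, the usual enzyme of this assay, and the Rin3 promoter 7, and 52.8% of 32851 RefSeq promoters held at least 1. The letters GGGCGG, searched on both strands, occurred 2 times in each of them and at least once in 35.7% of promoters. The promoters of Spred2 and Def6 held no position read in all 6 libraries and were not analysed here.

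Summed over all positions, coverage per library ranged from 38284759 to 53884467 reads, with a median of 27 to 45 reads per position and at least 10 at every position. Within the 4 rising windows, coverage summed over positions was 110 to 1679 per library. A read that spans several positions counts once at each of them. Wilson 95% intervals below are on reads pooled over the positions of a window. They cover counting error only, because reads of bisulfite libraries can be copies of 1 molecule. They also treat positions as separate reads, so they are too narrow where positions share reads. Intervals that lie apart are therefore no test of a difference. Going by the deposited names, each sequencing lane held libraries of 1 genotype of this series, and so effects of lane cannot be told apart from those of genotype.

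Spred2 (gene 114716, plus strand, chr11:19924442-20024026) was more methylated in KI in the body of the gene. Its rising window, chr11:19965001-19966000, is centred 41.1 kb after the transcript start and held 6 positions. The level was 10.6% in Control LT-HSC, 24.6% in Control ST-HSC and 43.8% in Control MPP. It was 51.6% in KI LT-HSC, 85.2% in KI ST-HSC and 68.3% in KI MPP. Every KI level was above every Control level, but KI LT-HSC (pooled 51.2%, interval 43.7 to 58.6) and its neighbour in the order, Control MPP (47.2%, 40.9 to 53.6), overlapped in their counting intervals. KI exceeded Control by 42.0 ± 18.1 points (SD across LT-HSC, ST-HSC and MPP, which do not replicate each other), a 2.60-fold higher mean level.

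Within this window 5 of the 6 positions of Spred2 were higher in KI in all 3 cell types, against 35427 of the 552338 positions read in all 6 libraries (6.41%). The window was chosen by the mean over these positions, so the count describes how evenly they contribute. The exception, at base 19965367, stood at 91.1% in Control MPP and 69.0% in KI MPP, and at 0 and 60.7% in Control and KI LT-HSC. The 4 forward-strand positions and the 2 reverse-strand positions come from different reads, and both runs were higher in KI in each cell type. The forward run differed by 45.6 (LT-HSC), 65.8 (ST-HSC) and 14.6 points (MPP), and the reverse run by 31.9, 50.3 and 44.2 points. The other 2 windows of Spred2 lay at opposite extremes and moved little. The one centred 1.06 kb after the start, with 46 positions, was at 1.50 to 5.36% in the 6 libraries, and the one near the gene's far end was at 97.8 to 100%. Their differences between genotypes ranged from -1.55 to 3.86 points.

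Def6 (gene 23853, plus strand, chr17:28207456-28228608) held, of the 4 genes, the rising window with the most positions. The rising window, chr17:28223001-28224000, lies 15.7 kb after the transcript start, in the last part of the gene, and held 26 positions. The Control libraries stood at 6.99% (LT-HSC), 12.1% (ST-HSC) and 14.1% (MPP). The KI libraries stood at 31.5, 49.4 and 52.1% in the same order. The groups did not overlap, and the pooled KI LT-HSC share of 27.4% (interval 24.7 to 30.2) lay above the highest Control share of 15.6% (13.9 to 17.4). The pairs of ST-HSC and MPP within each genotype overlapped in their intervals. KI exceeded Control by 33.3 ± 7.59 points (SD across cell types), a 4.01-fold higher mean level.

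Of the 26 positions of Def6, 24 were higher in KI in all 3 cell types and 19 were higher by at least 10 points in all 3, which held for 6296 of all shared positions (1.14%). The positions fell into 6 runs, a run being positions of 1 strand with gaps of at most 50 bases, which largely share reads. In ST-HSC and MPP all 6 runs were higher in KI, by 20.04 to 51.6 points and by 18.6 to 58.5 points. LT-HSC was uneven. The reverse run from 28223744 to 28223780 went from 20.1% in Control to 13.6% in KI, and the forward run just before it from 6.53 to 22.7%. The reverse run from 28223870 to 28223874 went from 0% on 26 reads per position to 100% on 19 reads per position. No other 1 kb stretch of Def6 held 5 shared positions, so the rise could not be set beside other windows of this gene.

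Rtkn (gene 20166, plus strand, chr6:83135505-83152579) differed from the other 3 genes in that the rise lay at the transcript start. The rising window, chr6:83135001-83136000, held 8 positions, the CpGs in capitals above. Control levels were 4.67% (LT-HSC), 11.2% (ST-HSC) and 1.26% (MPP), and KI levels were 24.4, 29.3 and 33.7%. All KI libraries were above all Control libraries, and the 3 KI libraries overlapped among themselves in their intervals. KI exceeded Control by 23.4 ± 7.86 points (SD across cell types), a 5.11-fold higher mean level.

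The CpG 23 bases before the Rtkn start was read on both strands. Its forward strand was at 0% in Control LT-HSC, 5.80% in Control ST-HSC and 0% in Control MPP, and at 45.6, 27.7 and 43.0% in KI. Its reverse strand was at 12.2, 6.02 and 0% in Control and at 14.9, 41.6 and 32.8% in KI. Strands thus differed in size at this CpG. Neither was lower in KI in any cell type, but on the reverse strand LT-HSC hardly differed, at 12.2% on 49 reads in Control and 14.9% on 47 reads in KI. The CpG 56 bases before the start was the 1 position of the promoter lower in KI, in ST-HSC, where Control stood at 30.3% and KI at 23.1%. Over all 4 positions of a strand, the forward run differed between genotypes least in ST-HSC (9.21 points, with 32.0 for LT-HSC and 36.4 for MPP), and the reverse run least in LT-HSC (7.40, with 27.0 for ST-HSC and 28.5 for MPP). The other window of Rtkn, centred 2.69 kb after the first start, stood at 3.34 to 16.4% over the 6 libraries with differences of -8.81 to 4.57 points.

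**Figure D1:**
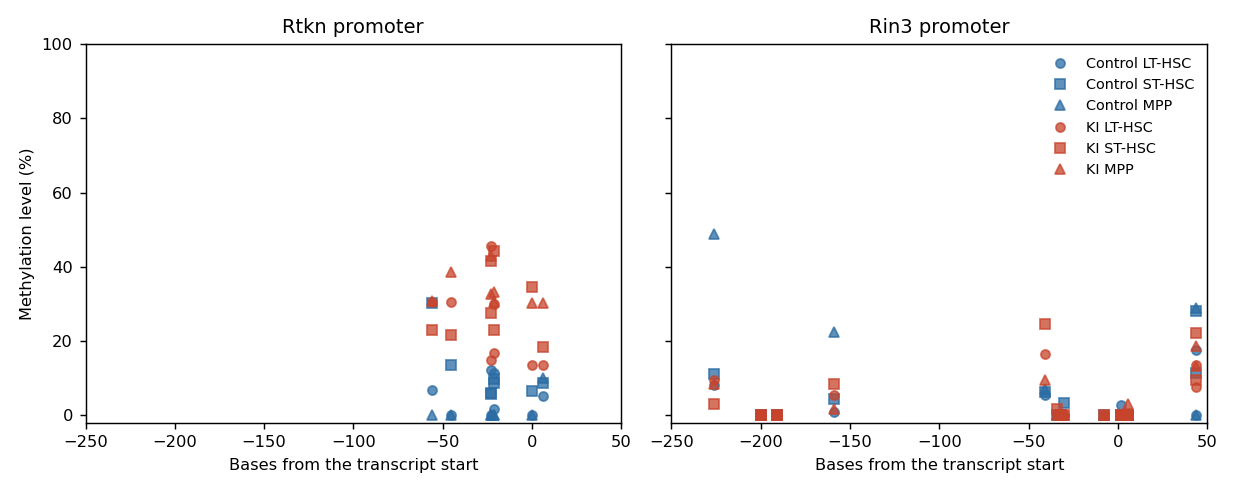
Methylation level in percent of reads at each position read in all 6 libraries within the first promoters of Rtkn and Rin3, against distance from the transcript start in bases. Colours are genotypes and symbols are cell types, 1 library each. KI points of Rtkn reach 45.6%, while most Rin3 points lie near 0%.

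Among RefSeq promoters with at least 5 shared positions, few behaved like that of Rtkn. Of 6602 such promoters, 16 were at least 10 points higher in KI in all 3 cell types (0.242%) and 0 were lower (0%). Rtkn was number 8 of the 16 by mean difference. The 8 positions of its promoter are those of the rising window that chose the gene. Its place among the 16 therefore describes the choice and carries no support of its own. Its mean Control level was exceeded by 11.2% of promoters, and the median promoter differed by 0.405 points between genotypes. The first Rin3 promoter, with 17 positions, had levels of 2.04, 3.82 and 6.32% in the Control libraries (LT-HSC, ST-HSC, MPP) and of 3.09, 4.08 and 3.22% in the KI libraries. Control MPP stood above the other libraries at 2 CpGs of it. The one 226 bases before the start was at 48.8% in Control MPP on 41 reads and at 2.94 to 11.2% in the other 5 libraries. The one 159 bases before the start was at 22.6% on 155 reads and at 0.855 to 8.43% in the other 5. The reverse strand of the CpG 44 bases after the start was at 13.6 to 29.0% in all 6 libraries.

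Rin3 (gene 217835, plus strand, chr12:102282840-102390854) had a weakly methylated start, a highly methylated far end and a rising window between them. The rising window, chr12:102368001-102369000, held 6 positions. Its level was 6.34% in Control LT-HSC, 32.4% in Control ST-HSC and 29.7% in Control MPP, and 61.8, 62.8 and 57.4% in KI. The groups did not overlap. The KI libraries overlapped in their intervals (pooled 56.5 to 64.5%), as did Control ST-HSC and MPP, whereas Control LT-HSC stood alone at a pooled 8.72% (6.36 to 11.8). The difference was therefore largest in LT-HSC, at 55.4 points, with 30.4 for ST-HSC and 27.7 for MPP. Whether differences vary between cell types could not be tested with 1 library per group. The mean difference was 37.8 ± 15.3 points (SD across cell types), a 2.66-fold higher mean level.

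No position of the Rin3 window was lower in KI in any cell type. The CpGs at bases 102368597 and 102368604 were read on both strands, which differed most in Control MPP. There the forward and reverse strands stood at 57.7 and 6.12% at the first CpG, and at 61.5 and 15.7% at the second. In KI LT-HSC the strands of the first CpG stood at 40 and 71.4%. At base 102368556 the levels were 0% in both LT-HSC libraries, 0 and 28.4% in Control and KI MPP, and 21.5 and 25.6% in Control and KI ST-HSC. The forward run differed by 44.8 (LT-HSC), 31.2 (ST-HSC) and 22.0 points (MPP), and the reverse run by 66.0, 29.5 and 33.5 points. The other 4 windows of Rin3 were either low or high. The window that holds the start of the gene extent was at 1.49 to 2.62% in 5 libraries and at 11.9% in Control MPP. There it was 10.2 points above KI MPP (1.74% of all windows were at least 10 points lower in KI MPP). The window just after it, with 52 positions, holds the first transcript start and was at 1.33 to 2.50%. The 2 windows at the far end were at 91.3 to 100%. Differences over these 4 windows ranged from -10.2 to 5.19 points.

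**Figure D2:**
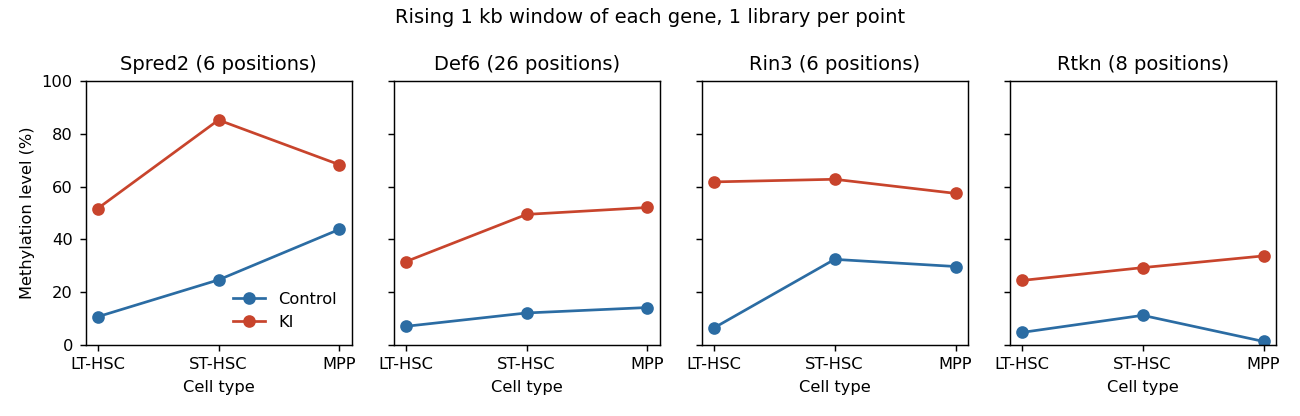
Mean methylation level in percent over the shared positions of the rising window of each gene, by cell type, with 1 library per point and lines joining libraries of a genotype. KI lies above Control in each panel, from 24.4 to 85.2% against 1.26 to 43.8%.

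**Figure D3:**
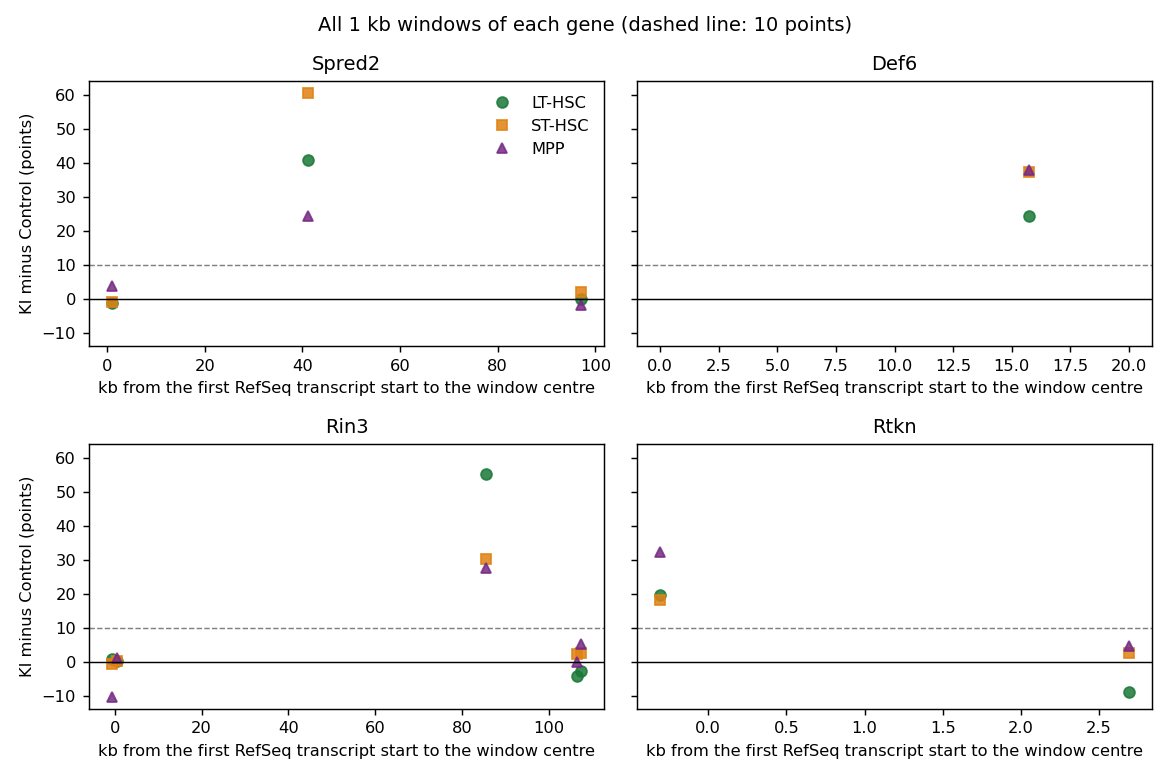
KI minus Control in percentage points for each 1 kb window of the 4 genes, against distance in kb from the first transcript start. The dashed line marks 10 points, and 1 window per gene lies above it in all 3 cell types.

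The rising windows had an intermediate or low Control level, which in part also held for other windows of these genes. Their Control means over cell types were 26.3% in Spred2, 11.1% in Def6, 22.8% in Rin3 and 5.70% in Rtkn. Of the other 7 windows, 4 stayed under 20% and 3 over 80% in all libraries, KI included. The Control means of those 4 were 1.80 to 9.48%, the highest being that of the other Rtkn window, above its rising window. Of all windows with a mean over the 6 libraries between 10 and 90%, 223 of 3596 were rising (6.2%), against 0.896% of all windows. That mean includes the KI levels, so the rule itself places rising windows mostly in this range. In all 4 rising windows the lowest KI level was above the highest Control level, which held for 2801 of 25123 windows (11.1%). The same levels chose the 4 windows, so this carries no support of its own. By mean difference, Spred2 was number 2, Rin3 number 8, Def6 number 20 and Rtkn number 73 of the 225 rising windows, whose median was 20.7 points. Of the 11 windows, the smallest difference in any cell type was 18.1 points in the rising window nearest the threshold (Rtkn), and 0.251 points in the nearest window that was not rising (Rin3).

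Positions in the rising windows did not all differ alike. Of 46 positions, 41 were higher in KI in all 3 cell types, 29 by at least 10 points in all 3, and 32 had every KI library above every Control library. Over all shared positions the same 3 properties held for 6.41, 1.14 and 3.72%. The levels of these positions chose the windows, so their counts, and those of strand runs, carry no support of their own. Over 12 strand runs and 3 cell types, 35 of 36 comparisons were higher in KI and 1 was lower. A difference of at least 10 points in all 3 cell types was reached by 9 of the 12 runs, the exceptions being 1 run of Def6 and both runs of Rtkn. The window of Def6 was 1 of 13 among the 225 rising windows with at least 26 positions, where the median was 7 and the highest number 62, and the median over all windows was 12. Coverage summed over positions and over the 3 libraries of a genotype was lower in KI than in Control in each rising window. The factors were 0.849 in Spred2, 0.872 in Def6, 0.944 in Rin3 and 0.786 in Rtkn, and in their other windows 1.01 to 1.19. Within cell types coverage was also lower in KI, except in MPP for Spred2 (248 in KI, 233 in Control) and Rin3 (572 and 232). The part of coverage in the methylation differences was not tested.

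**Figure D4:**
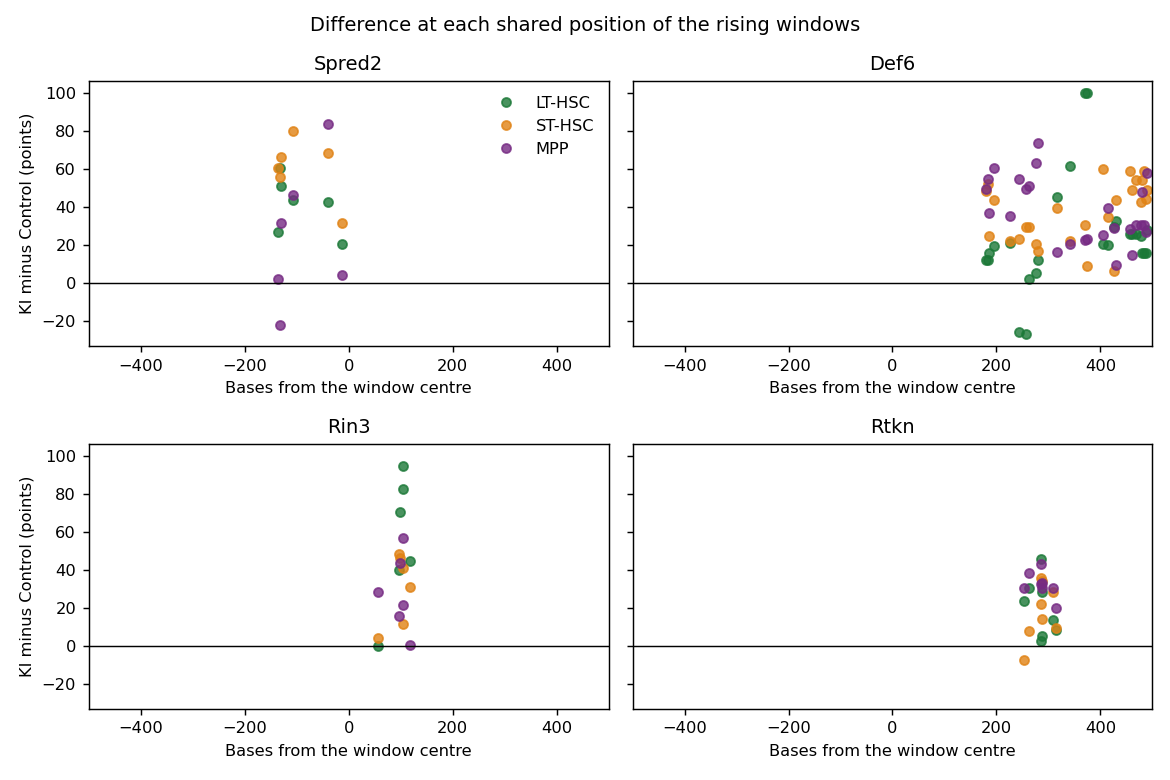
KI minus Control in percentage points at each shared position of the 4 rising windows, against distance from the window centre in bases, coloured by cell type. Most points lie above 0, with 2 Def6 positions in LT-HSC lowest, at -26.6 and -25.8 points.

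**Figure D5:**
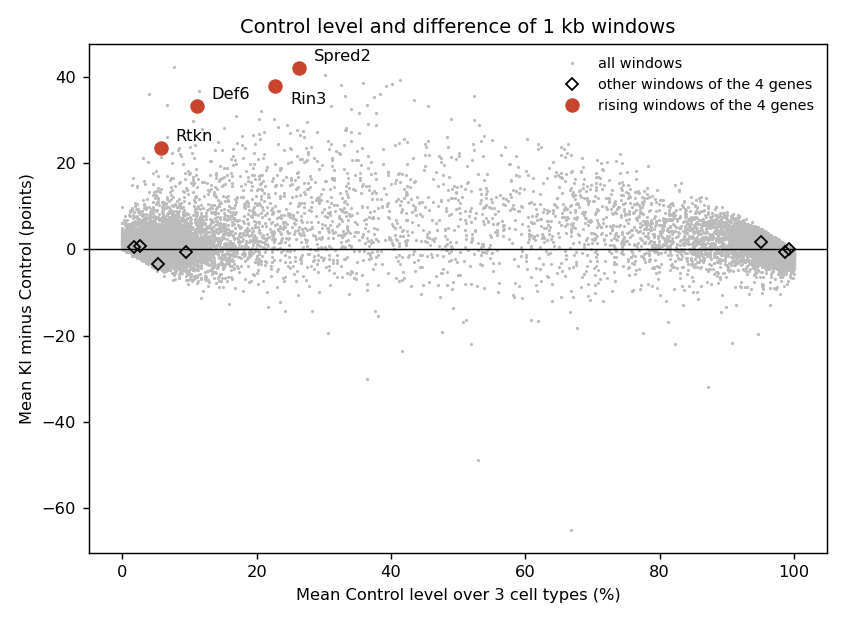
Mean KI minus Control in percentage points against mean Control level in percent for 25123 windows of 1 kb, each a mean over 3 cell types. The 4 rising windows lie at 23.4 to 42.0 points, and the other 7 windows of the genes at -3.31 to 1.78 points near either end of the Control scale.

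Positions in stretches with fewer than 5 shared positions numbered 34 in 16 windows of the 4 genes. None of the 16 was 10 points higher or lower in all 3 cell types, and 3 were higher in all 3 by any amount. These were the single position in a Rtkn window from 83147001 to 83148000 (9.82, 6.30 and 27.0 points), 3 positions of Def6 from 28208001 to 28209000, at 0 to 3.03%, and 3 positions of Rin3 next to its rising window. In this Rin3 stretch, at bases 102369001 to 102370000, LT-HSC stood at 24.3% in Control and 24.9% in KI, ST-HSC at 39.8 and 84.1%, and MPP at 38.9 and 73.1%. Positions covered in fewer than 6 libraries numbered 134 of 205 in Spred2, 55 of 93 in Def6, 44 of 124 in Rin3 and 64 of 82 in Rtkn.

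The step from LT-HSC to MPP was not used to choose the genes and could be tested. In the rising window of Spred2, MPP stood 33.2 points above LT-HSC in Control and 16.6 points above it in KI. In that of Def6 the differences were 7.14 and 20.6 points, so both genes were higher in MPP in both genotypes. A difference of at least 10 points in both genotypes held for 1 of the 11 windows, that of Spred2, and for 355 of all windows (1.41%). In Rin3 they were 23.3 points in Control and -4.35 in KI, and in Rtkn -3.41 and 9.31, of opposite sign between genotypes. With limma on the log2 of methylated over unmethylated reads, fitted over 25123 windows with genotype as a block, none of the 11 windows passed an adjusted p under 0.05, and none of all windows did in either direction (0%). The log2 difference was 1.93 (SE 0.65, unadjusted p 0.0200, adjusted p 0.608) in Spred2 and 1.40 (SE 0.41, unadjusted p 0.0106, adjusted p 0.550) in Def6. It was 0.72 (SE 0.66, adjusted p 0.817) in Rin3 and -0.12 (SE 0.67, adjusted p 0.976) in Rtkn. At an unadjusted p under 0.05 stood 2 of the 11 windows, those of Spred2 and Def6, against 1870 of 25123 (7.44%).

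The windows whose 6 levels lay nearest to those of each gene were found over all 25123 windows by the root mean square difference over the 6 libraries. Nearest to Spred2 were windows at Itpk1 and the microRNA gene Mir1936 (8.46 points away), Tubb4a (10.4) and Cmip (10.5). Nearest to Def6 were windows at Camkk2 (4.99), Rfx8 (5.46) and Tspan4 (5.50). Nearest to Rin3 were windows at Fam171a2 (8.55), at a place on chromosome 1 from 90202001 to 90203000 outside any listed gene (9.04), and at Pdzd3 (10.1). Nearest to Rtkn were windows at Arhgef17 (2.76), Fbrsl1 (4.36) and Pde8a (4.36). The Arhgef17 window (chr7:100930001-100931000) had Control levels of 9.63, 11.6 and 3.63% and KI levels of 26.2, 32.4 and 35.1%, in the order LT-HSC, ST-HSC, MPP. All of these windows were rising by the same rule except those of Camkk2 and Pdzd3. Likeness was measured on levels that include the genotype difference, so rising windows are near each other by construction.

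Other genes of the same pathways were counted by the same rule, and their share of rising windows was not above that of all windows. A list of 97 genes for regulators, GTPases and effectors of small GTPase pathways, RAS and RAB5 among them, without the 4 genes above, had 92 measured genes with 212 windows. Of these, 1 window was rising (0.472%) and 0 were at least 10 points lower in all 3 cell types, against 0.896% and 0.0517% over all windows. The median difference was 0.566 points over the list and 0.582 over all windows. With limma over all windows and cell type as a block, 0 of the 212 list windows passed as higher and 0 as lower (lowest adjusted p 0.480), where 0 higher (0%) and 2 lower (0.00796%) of 25123 passed. At an unadjusted p under 0.05 stood 12 of the 212, against 1755 of 25123 (6.99%).

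The 1 rising window of the list lies at Rhoc, a small GTPase (chr3:104793001-104794000, 6 positions). Control libraries stood at 59.8, 50.8 and 75.1% and KI libraries at 75.7, 90.4 and 89.9%, again in that order of cell types. Every KI level was above every Control level, by a mean of 23.4 points. In limma the Rhoc window had a log2 difference of 1.73 (SE 0.56) and an adjusted p of 0.629, so it did not pass. No other window of the list was rising. Among the 6 Sprouty and SPRED genes, inhibitors of RAS signalling like Spred2, 5 were measured, with 0 of 15 windows rising and mean differences of -0.567 to 18.6 points. The 17 measured RAS GTPase-activating proteins and GEFs had 0 of 41 windows rising, and the 15 RAS, RAF, MEK and ERK genes 0 of 37. The 16 RAB5 genes, with the Rin3 relatives Rin1, Rin2 and Rinl, had 0 of 28.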

How the data were processed

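Per the labels' protocols, 10 ng of DNA from sorted cells entered each library. The submitters' processing notes list Bismark 0.10.0, SAMtools 1.0, methylKit 0.9.1 and mm10. None of the sources used here gives settings, the treatment of duplicate reads or the conversion rate. Per the file headers, the authors deposited for each cytosine and strand the coverage, a read count, and the percent of those reads showing C or T. Methylated reads, recovered as coverage multiplied by percent C, were whole at 100% of positions (tolerance 0.01% of coverage). Positions read in all 6 libraries numbered 552338. The level of a window is the unweighted mean over its positions. Genes and promoters came from RefSeq tables of GRCm38.p6, the same build as mm10, and all 4 symbols matched. The first transcript start, taken from the promoter table, lies inside the gene extent in Def6, Rin3 and Rtkn, and at its first base in Spred2. Exons, introns and CpG islands were not analysed here. The fits used limma 3.58.1 under R 4.3.3 (prior count 1, variance trend, Benjamini-Hochberg adjustment over all windows), after the script was tested on simulated data. With 1 library per group, limma takes its spread from what genotype and cell type, fitted together, leave over. That remainder holds how far the genotype difference varies between cell types, along with noise between libraries. Named are the 4 genes and their rising windows, list genes with a window that differed by 10 points the same way in every cell type, and the 3 nearest windows per gene. Separate counts for some groups of the gene list are not reported here. The genes, lists and rules were chosen with earlier results of these data known.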

Additional observations from a re-analysis of the deposited data

Results flagged for a closer look

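In the rising windows, positions outside the set shared by all 6 libraries, but read in both libraries of a cell type, were also higher in KI in 3 cases. These positions are not in the report's levels and were compared as values only. In the Rin3 window from 102368001 to 102369000, 8 such positions stood at 15.3% in Control and 39.4% in KI ST-HSC, a difference of 24.0 points. In MPP, 7 such positions of that window stood at 15.9 and 33.2%, a difference of 17.3 points. In the Rtkn window from 83135001 to 83136000, 6 such positions stood at 15.5 and 41.4% in ST-HSC, a difference of 25.9 points. In LT-HSC, 6 positions of the same Rtkn window stood at 9.63 and 10.1%, a difference of 0.430 points, against 19.7 points at the 8 shared positions.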

How the results depend on the processing

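The differences of the 4 rising windows kept their sign in every setting tried: reads pooled over positions, strands of a CpG merged, positions thinned to 10 reads, and a coverage of at least 20. At that coverage Spred2 had no position left, and so no value. Beyond the counting interval moved Def6 pooled over reads (30.8 points against 33.3) and Rin3 at a coverage of at least 20 (43.0 against 37.8, on 3 positions). The number of rising windows in the 4 genes stayed at 4 at 5 points, with window starts shifted by 500 bases, within the gene extent alone and thinned to 10 reads, and was 3 at 20 points. It was 1 of 3 windows with at least 10 positions per window, where only Def6 qualifies among the 4, and 2 of 8 at a coverage of at least 20, where fewer windows have 5 positions. Over all windows the count was 561 at 5 points, 33 at 20 points, 78 with at least 10 positions, 139 at a coverage of at least 20, 214 with shifted starts and 250 thinned, against 225. In the limma test of MPP against LT-HSC, 0 windows of the 4 genes passed in any setting, with adjusted p of at least 0.457. Over all windows 0 passed in each setting, except 8 of 14702 with at least 10 positions per window. With percent levels in place of log2 ratios the Rtkn difference turned to 2.95 points (adjusted p 0.933), and the cause was not tested. For the GTPase list, 0 windows passed in any setting, also without the libraries of LT-HSC, ST-HSC or MPP, with a lowest adjusted p of 0.354. Over all windows at most 4 passed between genotypes, in the setting of at least 10 positions per window. No paired analysis was possible because each group was 1 library, with no replicate numbers to pair. The blocks of the limma fits, cell type or genotype, match libraries across conditions and not replicates. Depth limits Spred2 and Rin3 most, with a coverage summed over positions of 122 and 110 in their shallowest libraries.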

Other observations

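Outside its rising window, Def6 held single positions at which Control MPP stood below the other libraries. At base 28216930 the level was 41.9% in Control MPP, 98.1 and 93.1% in Control LT-HSC and ST-HSC, and 89.1, 82.7 and 100% in KI LT-HSC, ST-HSC and MPP. At base 28217035 Control MPP stood at 52.9% and the other 5 libraries at 85.3 to 100%. At base 28206269, before the gene, Control MPP stood at 59.6% and KI MPP at 92.5%, while ST-HSC stood at 100% in Control and 73.2% in KI. These positions were chosen after their values were seen and lie in stretches with 1 or 2 shared positions. In the Spred2 stretch from 19953001 to 19954000, 4 positions had Control levels of 16.5, 13.6 and 0% and KI levels of 16.1, 28.4 and 12.4%, in the order LT-HSC, ST-HSC, MPP.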
